A study of Mus musculus with 16 samples.

Results

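The melanocyte pigment genes described here are 10 genes of melanin synthesis and of the melanocyte lineage, namely Tyr, Tyrp1, Dct, Pmel, Mlana, Oca2, Slc45a2, Mc1r, Mitf and Sox10. They were taken by symbol from the gene counts of mouse skin, where they make up 10 of 23282 rows, and each symbol had 1 row. Their levels were followed over 16 skin libraries in 4 groups of 4 mice. All mice were wild-type C57BL/6N males, bought at 3 weeks of age and adapted for 1 week. Cont mice ate normal chow. LowAhR mice were kept for 12 weeks on a diet low in ligands of the aryl hydrocarbon receptor (AhR), a transcription factor that senses small aromatic molecules, with paper bedding. LowAhR+AD mice ate the same diet, and from week 2 their back skin was painted 2 times per week with 1% 2,4-dinitrochlorobenzene (DNCB) in acetone and olive oil, a hapten used to bring on a dermatitis like atopic dermatitis (AD). LowAhR+AD+BJ mice had this diet and DNCB, and received BJIKT, a water extract of a mixture of herbs, by gavage at 1 g/kg/day. No group had DNCB on normal chow or BJIKT without DNCB, so the effect of DNCB could only be read on the low ligand diet.

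Melanocytes make melanin inside melanosomes, organelles in which tyrosinase (Tyr) and the related enzymes Tyrp1 and Dct turn tyrosine into pigment on fibrils built from Pmel. In the body skin of mice nearly all pigment cells sit in the hair follicle, and they synthesise melanin while a hair grows and stop when it rests. Mitf is the transcription factor that drives most of the pigment genes, Sox10 acts above it and is shared with Schwann cells, and Mc1r is the receptor through which melanocortin raises the making of dark pigment.

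Each library was a QuantSeq library, which reads one stretch near the 3' end of a messenger RNA, and held 7080508 to 13467477 counts on genes. Both DNCB groups were deeper than the others, with 10614393 to 13467477 counts against 7080508 to 8773876. Levels are given as CPM, the counts of a gene scaled to a common library total, after TMM scaling, and a count of 0 allows up to 3 counts, which is 0.229 to 0.406 CPM in these libraries and covers counting error only. One library, LowAhR+AD replicate 1, stood apart. Where the 3 fellow replicates of a library predicted 20 to 40 counts for a gene, this library had none for 32.6% of such genes and the others for 1.03% to 13.8%. The markers of the labelled tissue were present and differed between groups. Krt14, a keratin of basal keratinocytes, had means of 733 CPM in Cont and 891 CPM in LowAhR and of 3530 and 3978 CPM in the groups with DNCB, without and with BJIKT. Dcn, a fibroblast matrix gene, had means of 10237 and 10281 CPM without DNCB and of 3549 and 5121 CPM with it. Because whole skin was sequenced, fewer melanocytes and less RNA per melanocyte cannot be told apart in any value below.

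In outline, 3 of the 9 pigment genes that could be tested rose in the skin of LowAhR+AD mice against Cont mice. They were Dct, Tyrp1 and Slc45a2, and 12.3% of all tested genes rose in that comparison. Dct also rose against LowAhR mice, where 6.42% of all tested genes rose. The Slc45a2 call was lost in 7 of 8 fits with a library left out, and the Dct call against LowAhR in 3 of 8. None of the 9 was called for the diet with its bedding or for BJIKT. Pmel, Mitf and Sox10 were not called in any of the 5 comparisons made. Of the 10 genes, Tyr was too low to be tested across all genes. A gene is called where edgeR's quasi-likelihood test gives an adjusted p under 0.05 over the 14854 tested rows.

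**Figure D1:**
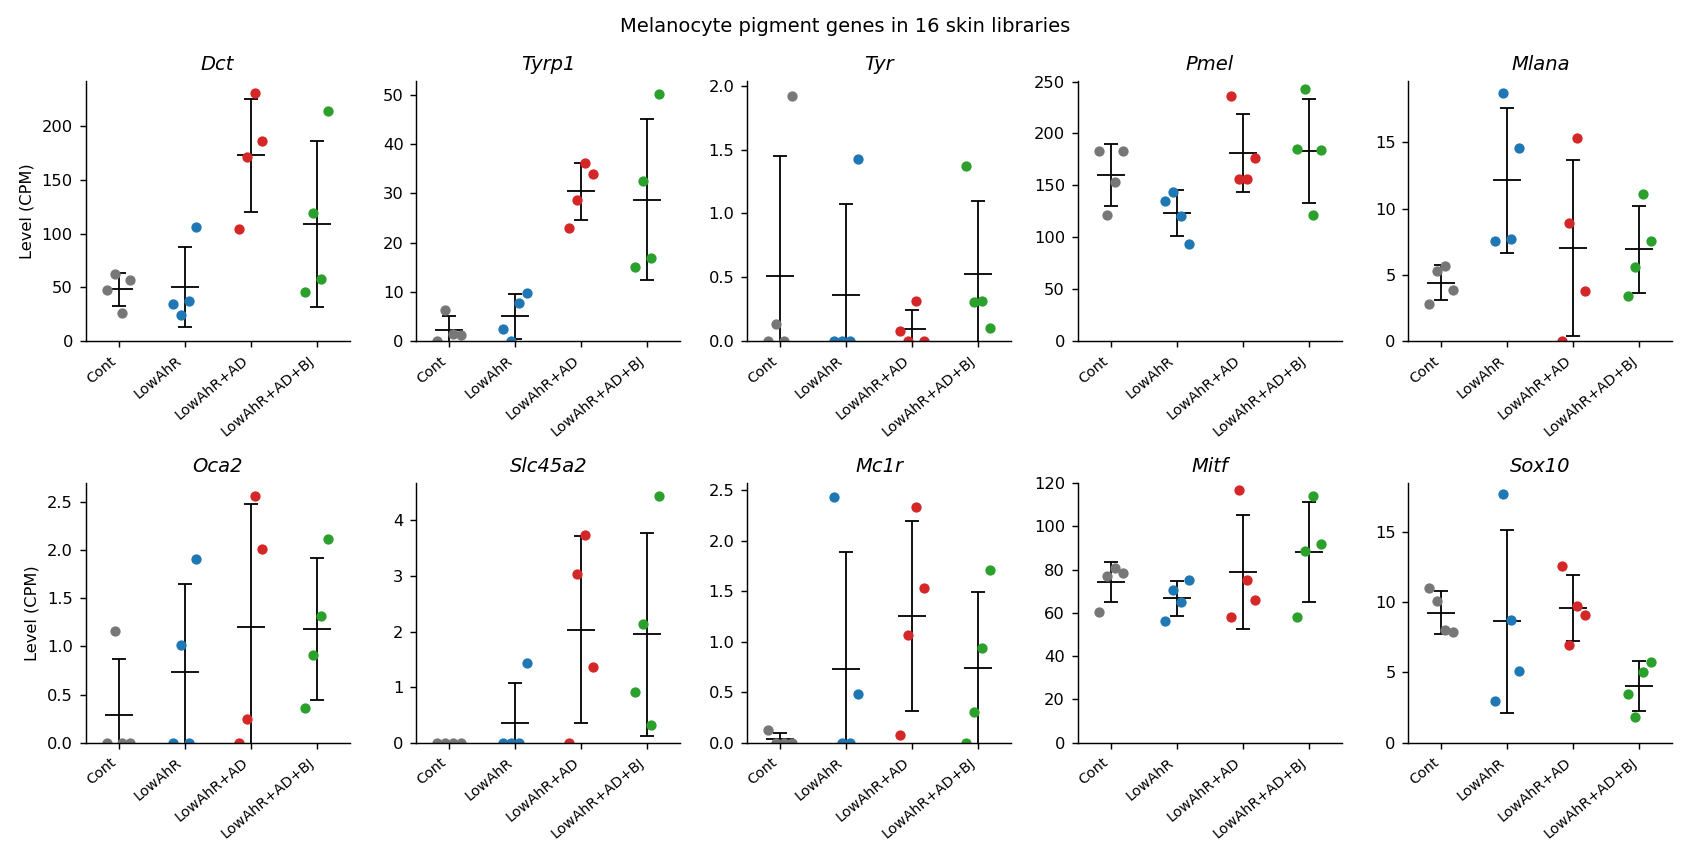
Levels of the 10 pigment genes in CPM, on linear axes that start at 0. Each point is a library, and bars give the mean and SD of the 4 libraries of a group. For Dct and Tyrp1 the 4 LowAhR+AD libraries lie above the 4 Cont libraries, while Pmel, Mitf and Sox10 overlap between these groups.

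The melanosomal enzymes gave the clearest differences. Dct (chr14:118012790-118052244, minus strand, on mm10) encodes dopachrome tautomerase, and Tyrp1 (chr4:80834123-80851719, plus strand) encodes a second enzyme of dark pigment synthesis. Tyr (chr7:87424771-87493512, minus strand) encodes the enzyme of the rate-limiting step. The start regions of these 3 genes are shown because the enzymes share a known binding word of Mitf, the M-box, here searched as TCATGTG on both strands (reverse complement CACATGA). The windows run from 250 bases before to 50 bases after the start site in RefSeq (GRCm38.p6), at chr14:118052197-118052496, minus strand for Dct, chr4:80833963-80834262, plus strand for Tyrp1 and chr7:87493463-87493762, minus strand for Tyr. They are printed from 5' to 3' along the gene, with the word in capitals.
Dct: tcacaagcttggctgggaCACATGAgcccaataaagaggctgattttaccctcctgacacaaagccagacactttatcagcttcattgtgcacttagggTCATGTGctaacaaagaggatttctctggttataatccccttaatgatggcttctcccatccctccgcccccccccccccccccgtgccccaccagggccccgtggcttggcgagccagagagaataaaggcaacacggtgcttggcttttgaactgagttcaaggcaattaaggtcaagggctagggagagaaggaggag
Tyrp1: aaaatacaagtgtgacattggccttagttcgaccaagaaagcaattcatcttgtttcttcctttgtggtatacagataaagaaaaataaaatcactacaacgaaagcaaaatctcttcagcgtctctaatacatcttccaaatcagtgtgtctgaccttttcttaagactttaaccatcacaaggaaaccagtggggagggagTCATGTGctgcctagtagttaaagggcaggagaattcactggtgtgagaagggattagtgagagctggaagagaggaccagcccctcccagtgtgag
Tyr: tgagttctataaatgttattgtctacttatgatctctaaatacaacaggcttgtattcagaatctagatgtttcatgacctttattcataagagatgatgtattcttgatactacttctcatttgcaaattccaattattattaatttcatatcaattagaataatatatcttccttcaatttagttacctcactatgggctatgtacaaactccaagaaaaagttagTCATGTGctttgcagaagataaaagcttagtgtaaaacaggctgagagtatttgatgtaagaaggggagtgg

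Within these windows the word started 22 bases before the start site in Tyr and 47 bases before it in Tyrp1. Dct held it at 151 bases before the start and once more, as the reverse complement, at 232 bases before it. Windows were found for 6 of the 10 genes, and 4 of those 6 genes held TCATGTG, the fourth being Mc1r, where it began 52 bases before the start. Of all 27025 genes with a window, 4.31% held it, and of all 32851 windows 3.77% did. The shorter word CATGTG, which overlaps the longer one, was in windows of 5 of the 6 genes, with Oca2 added. It was in windows of 15.9% of all genes and in 14.2% of all windows. Neither word was in any of the 3 windows of Mitf. A match describes the letters only.

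Dct was measured at 47.1, 61.9, 26.2 and 56.4 CPM in Cont replicates 1 to 4 and at 34.2, 24.4, 36.8 and 106 CPM in the LowAhR replicates. The LowAhR+AD libraries gave 104, 171, 231 and 186 CPM, and the LowAhR+AD+BJ libraries 45.1, 119, 57.3 and 214 CPM. All 4 LowAhR+AD libraries were above all Cont libraries, but LowAhR replicate 4, at 106 CPM, passed the lowest LowAhR+AD library. The LowAhR+AD+BJ libraries spread widely, with 2 of 4 below every LowAhR+AD library and 2 of 4 within its range. Against LowAhR the fitted log2 fold change of LowAhR+AD was 1.78 (SE 0.49, adjusted p = 0.0239), and against Cont it was 1.85 (SE 0.49, adjusted p = 0.012).

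Tyrp1 was low in skin without DNCB. The Cont libraries gave 0, 6.33, 1.36 and 1.2 CPM, and the LowAhR libraries 2.43, 0, 7.68 and 9.79 CPM. The LowAhR+AD libraries gave 23, 28.6, 36.1 and 33.9 CPM, and the LowAhR+AD+BJ libraries 15.1, 32.6, 16.9 and 50.3 CPM. Every DNCB library, with or without BJIKT, was above every library without DNCB. The rise of LowAhR+AD against Cont was 3.77 on the log2 scale (SE 0.95, adjusted p = 0.0092). Against LowAhR the difference was 2.61 (SE 0.89), and it missed the threshold at an adjusted p of 0.0631, although the groups did not overlap.

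Tyr had 17 counts in all in the Cont group, 12 in LowAhR, 5 in LowAhR+AD and 23 in LowAhR+AD+BJ, and did not pass the filter on low counts. Its highest level was 1.92 CPM, in Cont replicate 4, and 7 of 16 libraries had no count. Two-sided exact permutation tests of its log2 CPM gave p = 0.714 for LowAhR against Cont, p = 1 for LowAhR+AD against LowAhR, p = 0.0857 for LowAhR+AD+BJ against LowAhR+AD, p = 0.714 for LowAhR+AD against Cont and p = 0.4 for LowAhR+AD+BJ against LowAhR. With counts this low and this uneven between libraries of a group, a difference in Tyr was not resolved.

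The melanosome matrix and antigen genes moved less. Pmel (chr10:128704195-128720238, plus strand), the fibril protein, gave 183, 121, 153 and 183 CPM in Cont, 135, 144, 120 and 93.2 CPM in LowAhR, 236, 156, 156 and 176 CPM in LowAhR+AD and 185, 243, 121 and 184 CPM in LowAhR+AD+BJ. The LowAhR libraries were the lowest as a group, and all 4 lay below all LowAhR+AD libraries. The difference between these groups was 0.56 on the log2 scale (SE 0.23) and was not called, with an adjusted p of 0.123. The last 105 bases of Pmel lie on the 3' exon of Dgka, a lipid kinase gene on the opposite strand. Dgka had group means of 171 CPM in Cont, 136 CPM in LowAhR, 175 CPM in LowAhR+AD and 195 CPM with BJIKT added. The means of Pmel were 160, 123, 181 and 183 CPM in the same order, so both genes had their lowest mean in LowAhR. The strand setting of the counting is not given in the sources used here. Reads of the 105 shared bases therefore cannot be told apart, and their part in the Pmel counts was not tested.

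Mlana (chr19:29697824-29708634, plus strand), the antigen MART-1 that sits in early melanosomes, ordered the groups differently. Its levels were 2.82, 5.3, 5.68 and 3.83 CPM in Cont, 7.58, 18.7, 7.68 and 14.6 CPM in LowAhR, 0, 8.94, 15.3 and 3.77 CPM in LowAhR+AD and 3.38, 5.6, 11.1 and 7.56 CPM in LowAhR+AD+BJ. All LowAhR libraries exceeded all Cont libraries, and the LowAhR+AD libraries spanned nearly the whole range, from the library that stood apart at 0 to 15.3 CPM. The difference of LowAhR against Cont was 1.46 on the log2 scale (SE 0.85) and was not called, with an adjusted p of 0.478.

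The melanosomal transporters were rare transcripts. Slc45a2 (chr15:11000721-11029233, plus strand), a transporter needed for melanosome pH, had no count in any Cont library and levels of 0, 0, 0 and 1.43 CPM in LowAhR. The LowAhR+AD libraries gave 0, 3.04, 3.73 and 1.37 CPM and the LowAhR+AD+BJ libraries 0.913, 2.14, 0.311 and 4.44 CPM. It thus had counts in 3 of 4 LowAhR+AD libraries and in all 4 LowAhR+AD+BJ libraries. The LowAhR+AD mean, 2.03 CPM (SD 1.68), was 5.41-fold that of Cont when Cont is set at 3 counts per library. This setting covers counting error only. As no Cont library had a count, the gene passed the filter through libraries of the other groups. With only the 8 libraries of the comparison it was not tested. The difference from Cont was called at an adjusted p of 0.0363. Limma voom gave an adjusted p of 0.123 for it, and the call was also lost when any 1 library other than LowAhR+AD replicate 1 was left out, with adjusted p of 0.0526 to 0.0744. Oca2 (chr7:56239760-56536518, plus strand), a melanosomal anion channel, had counts in 1 of 4 Cont, 2 of 4 LowAhR, 3 of 4 LowAhR+AD and 4 of 4 LowAhR+AD+BJ libraries. Its highest level was 2.56 CPM, in LowAhR+AD replicate 3, and it was not called in any comparison.

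Mc1r (chr8:123407107-123410744, plus strand), the melanocortin receptor, had 1 count in all 4 Cont libraries together. Its levels were 2.43, 0, 0 and 0.477 CPM in LowAhR, 0.0763, 1.07, 2.33 and 1.53 CPM in LowAhR+AD and 0, 0.305, 0.933 and 1.71 CPM in LowAhR+AD+BJ. Of the LowAhR+AD libraries 3 of 4 exceeded every Cont library, with an adjusted p of 0.0826 by edgeR and of 0.0444 by DESeq2. The gene Tubb3, a neuronal tubulin, starts 680 bases after the end of Mc1r on the same strand and had group means of 2.29, 3.96, 35.9 and 36.6 CPM, the last 2 being the groups painted with DNCB. Whether any of its reads were counted on Mc1r was not tested.

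The 2 transcription factors did not follow the enzymes. Mitf (chr6:97807052-98021349, plus strand) gave 60.6, 77, 80.9 and 78.3 CPM in Cont, 56.1, 70.4, 65 and 75.3 CPM in LowAhR, 57.9, 117, 75.1 and 65.9 CPM in LowAhR+AD and 57.9, 88.7, 114 and 91.8 CPM in LowAhR+AD+BJ. Each group reached down to 56.1 to 60.6 CPM, so the groups overlapped in all comparisons. The difference of LowAhR+AD against LowAhR was 0.24 (SE 0.24) on the log2 scale, with an adjusted p of 0.544. Mitf is not particular to pigment cells, since mast cells, macrophages and other cells of skin use it too. Of the 10 mast cell genes, 3 rose in LowAhR+AD against LowAhR, where 6.42% of all tested genes rose, and their summed levels overlapped, at 280 to 583 CPM in LowAhR and 512 to 1003 CPM in LowAhR+AD. The macrophage list had 0 of 10 genes called in that comparison. Their part in the Mitf values was not tested.

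Sox10 (chr15:79154908-79165240, minus strand) was measured at 11, 10.1, 8.02 and 7.9 CPM in Cont, at 2.98, 17.7, 8.72 and 5.13 CPM in LowAhR, at 12.6, 6.97, 9.72 and 9.07 CPM in LowAhR+AD and at 3.47, 1.83, 5.06 and 5.75 CPM in LowAhR+AD+BJ. All 4 LowAhR+AD+BJ libraries lay below all LowAhR+AD libraries, and the LowAhR libraries covered both ranges. Against LowAhR+AD the log2 difference was -1.25 (SE 0.51), with an unadjusted p of 0.0244 and an adjusted p of 0.5. Schwann cells of skin nerves also express Sox10. Of the 12 genes of the Schwann cell list, 11 were tested. In this comparison 0 of them were called, as were 0% of all tested genes, so the count is uninformative. The summed level of the list was 223 to 259 CPM in LowAhR+AD and 191 to 338 CPM in LowAhR+AD+BJ. Between LowAhR+AD and LowAhR, Sox10 differed by 0.15 on the log2 scale (SE 0.50, adjusted p = 0.877).

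By comparison, the diet with its paper bedding, LowAhR against Cont, gave a call for 0 of the 9 tested pigment genes. It gave a call for 0% of all tested genes. At an unadjusted p under 0.05 there were 2 of 9, Slc45a2 and Mc1r, and DESeq2 and limma voom also called 0, though DESeq2 gave no adjusted p for Slc45a2, Oca2 and Mc1r here. Mlana was the 1 gene of 10 whose groups did not overlap, which was so for 11.3% of all tested genes. Dct differed by 0.07 (SE 0.48) on the log2 scale and Tyrp1 by 1.17 (SE 0.91). LowAhR replicate 4 had the highest level of its group for Dct, Tyrp1, Tyr, Oca2 and Slc45a2. Without it the Dct difference became -0.59 and that of Tyrp1 0.61, neither called.

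DNCB on the low ligand diet, LowAhR+AD against LowAhR, gave 1 call among the 9, Dct, where 12.6% of all tested genes were called and 6.42% were called higher. The groups did not overlap for 2 of the 10 genes, Tyrp1 and Pmel, against 18.8% of all tested genes. Across the 9 genes the median log2 difference was 0.70, beside 0.04 over all tested genes, and 8 of 9 were above 0 with Mlana the exception, at -0.79 (SE 0.83). The 9 include the rare Oca2, Slc45a2 and Mc1r, whose fitted values depend on the prior count, and the median is the value of a gene among them. Mitf and Sox10 differed by only 0.24 (SE 0.24) and 0.15 (SE 0.50). A shift of the whole set was not tested. The Dct call did not hold in every fit with a library left out. Leaving out LowAhR replicate 1, 2 or 3 raised its adjusted p to 0.0764, 0.0757 and 0.0675, at log2 differences of 1.63, 1.55 and 1.67. Without LowAhR replicate 4, Dct differed by 2.44 (adjusted p = 0.0038 by edgeR) and Tyrp1 by 3.17 (adjusted p = 0.0487), so that both were then called. Without LowAhR+AD replicate 1, the library with many missing genes, Dct differed by 1.96 (adjusted p = 0.0164) and Tyrp1 by 2.72 (adjusted p = 0.0588), and the count of pigment genes called was still 1. Other tissue of the skin differed between the same libraries. Of the skeletal muscle list 12 of 12 genes fell, with sums of 11510 to 26083 CPM in LowAhR and 540 to 4429 CPM in LowAhR+AD, and of the adipocyte list 7 of 10 fell, with sums of 7796 to 12350 and 456 to 4072 CPM. With library sizes taken without hair, muscle and fat genes, 1 pigment gene was called here and 3 against Cont, the same genes as before.

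The joint change of diet, bedding and DNCB, LowAhR+AD against Cont, gave 3 calls among the 9, Dct, Tyrp1 and Slc45a2, all higher. Of all tested genes 21.8% were called and 12.3% called higher. Dct and Tyrp1 did not overlap between these groups, 2 of 10 genes against 24.7% of all tested genes. Both remained called when any 1 library was left out, with adjusted p of 0.00661 to 0.0403 for Dct and 0.00472 to 0.0313 for Tyrp1. Pmel differed by 0.18 (SE 0.23), Mitf by 0.09 (SE 0.24) and Sox10 by 0.05 (SE 0.50), none of them called. This comparison and the former one share the LowAhR+AD libraries, so they are not independent of each other. Without LowAhR+AD replicate 1 the count of calls was still 3.

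BJIKT in DNCB-treated mice, LowAhR+AD+BJ against LowAhR+AD, gave 0 calls among the 9 and among all tested genes, 0%. At an unadjusted p under 0.05 there was 1 of 9, Sox10, and DESeq2 and limma voom called 0. Sox10 was also the 1 gene of 10 without overlap, against 5.08% of all tested genes. Dct differed by -0.67 (SE 0.48, adjusted p = 0.666) and Tyrp1 by -0.08 (SE 0.83, adjusted p = 0.982). With standard errors of this size, a change of either enzyme by BJIKT in either direction was not resolved.

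LowAhR+AD+BJ against LowAhR, which asks how far the BJIKT-treated skin was from skin without DNCB, gave 0 calls among the 9, where 6.77% of all tested genes were called. At an unadjusted p under 0.05 there were 4 of 9, Tyrp1, Dct and Pmel with higher and Sox10 with lower values, and DESeq2, which gave no adjusted p for Mc1r here, and limma voom called 0. Tyrp1 was the 1 gene of 10 without overlap, against 17.1% of all tested genes, with a log2 difference of 2.52 (SE 0.89, adjusted p = 0.0979). Dct differed by 1.11 (SE 0.48, adjusted p = 0.18), and by 1.77 (adjusted p = 0.029) without LowAhR replicate 4. Pmel differed by 0.57 (SE 0.23, adjusted p = 0.151), and by 0.73 (adjusted p = 0.0484) without LowAhR+AD+BJ replicate 3. The difference between the effects of DNCB with and without BJIKT is the comparison of the preceding paragraph, in which no pigment gene was called.

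**Figure D2:**
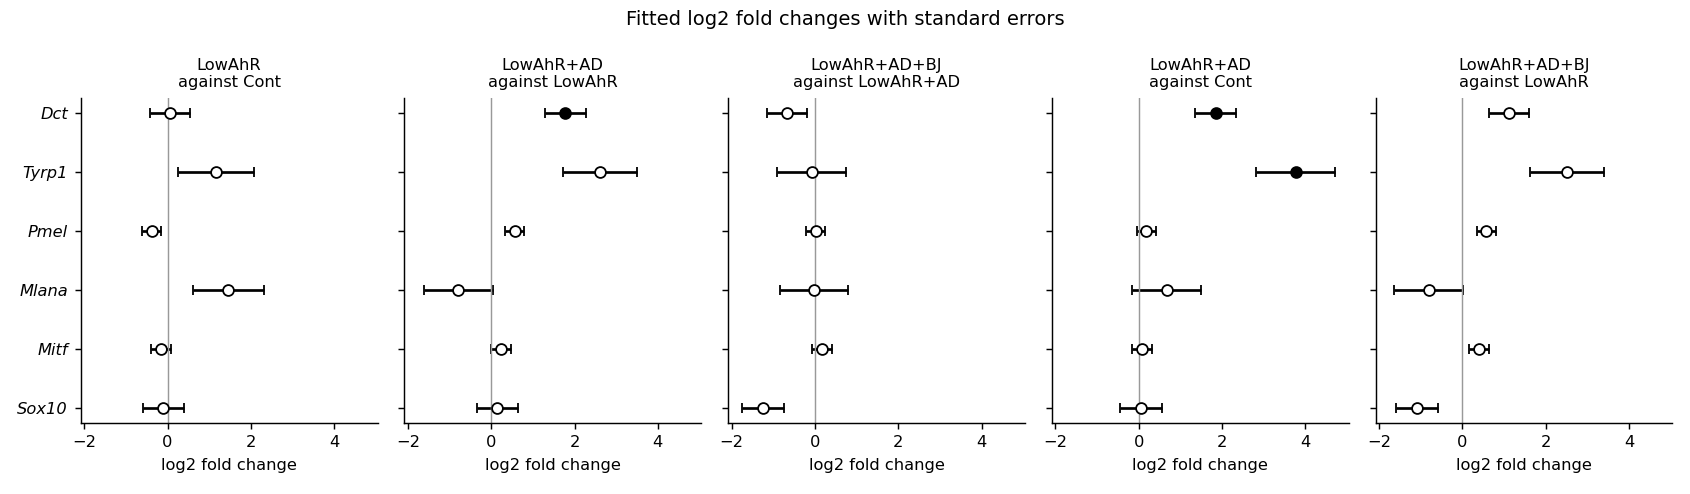
Fitted log2 fold changes with standard errors for the 6 pigment genes with enough counts, in 5 comparisons of 4 libraries against 4. Filled points have an adjusted p under 0.05. Dct is filled against LowAhR and against Cont, Tyrp1 against Cont only, and Pmel, Mitf and Sox10 nowhere.

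The counts on the pigment genes were not parallel within a library. Set against Pmel of the same library, a ratio chosen after the values were seen and given without a test, Dct amounted to 31.2 ± 14.4 counts per 100 Pmel counts in Cont (SD, n = 4), 46.6 ± 44.9 in LowAhR, 102 ± 42.8 in LowAhR+AD and 59.3 ± 39.8 in LowAhR+AD+BJ. For Tyrp1 the ratios were 1.69 ± 2.38, 4.67 ± 4.72, 17.6 ± 5.61 and 15.7 ± 8.21. Mitf kept to 48.1 ± 13.1, 56.4 ± 17.1, 46.2 ± 21.4 and 53.1 ± 28.7 per 100 Pmel counts. The ratios of Tyrp1 in the LowAhR+AD libraries, 9.78 to 23.1, lay above those in Cont, 0 to 5.22, and overlapped those in LowAhR, which reached 10.5. Such ratios show unequal counts within a library and not which gene changed. Reads of Dgka counted on Pmel, if any, would enter every ratio, and their part was not tested.

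**Figure D3:**
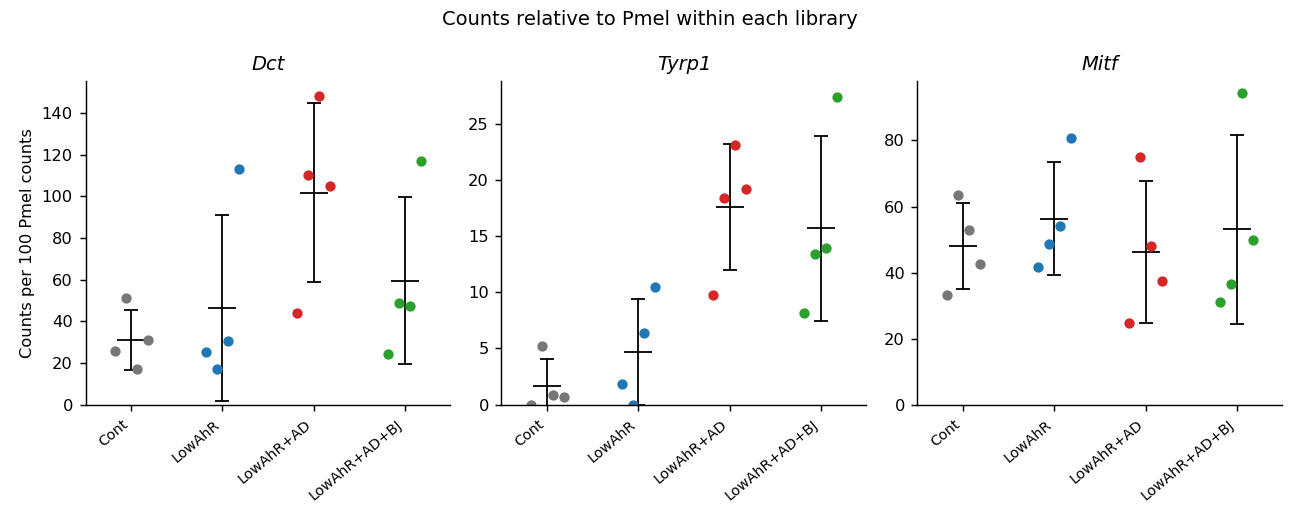
Counts of Dct, Tyrp1 and Mitf per 100 counts of Pmel in the same library, on linear axes that start at 0. Points are libraries, and bars give the mean and SD of 4. The Tyrp1 ratios have a mean of 1.69 in Cont and of 17.6 in LowAhR+AD, and the means of Mitf lie between 46.2 and 56.4. Reads of Dgka counted on Pmel, if any, are part of the ratios.

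As pigment is made while hair grows, the genes of the growing hair were set beside them. The list of hair shaft and matrix genes, which holds hair keratins such as Krt31 and Krt35 and their regulator Hoxc13, had 17 tested genes, of which 14 rose in LowAhR+AD against Cont and 2 against LowAhR, with none lower. Of all tested genes 12.3% and 6.42% rose in these comparisons. Their summed level was 75.4, 94.7, 103 and 271 CPM in the Cont libraries and 1825, 45.3, 375 and 6693 CPM in the LowAhR libraries. It was 2776, 19433, 10707 and 13329 CPM in LowAhR+AD and 3071, 9930, 11423 and 8144 CPM in LowAhR+AD+BJ. LowAhR replicate 4, the highest LowAhR library for Dct and Tyrp1, was also the highest for this sum, above the lowest library of both DNCB groups. Between LowAhR replicates 1 and 3 the order was opposite, replicate 1 having the higher sum with the lower Dct and Tyrp1. In Cont, replicate 4 had the highest sum and replicate 2 the highest Dct and Tyrp1. Within LowAhR+AD, replicate 1, the library with many missing genes, had the lowest sum and the lowest Dct and Tyrp1, but among the other 3 libraries the order was opposite, replicate 2 having the highest sum with the lowest Dct and Tyrp1 and replicate 3 the lowest sum with the highest. Within LowAhR+AD+BJ, replicate 1 had the lowest sum, Dct and Tyrp1, at 3071, 45.1 and 15.1 CPM. Among the others the order was not shared. Replicate 3 had the highest sum and 57.3 CPM of Dct, and replicate 4 a lower sum and 214 CPM. Of the 10 inner root sheath genes, 8 rose and 1 fell in LowAhR+AD against Cont, where 21.8% of all tested genes were called, and 1 rose against LowAhR, where 12.6% were. Their summed levels were 638 to 1274 CPM in Cont, 451 to 8397 CPM in LowAhR, 5991 to 20098 CPM in LowAhR+AD and 5675 to 15687 CPM in LowAhR+AD+BJ. The part of hair growth in the pigment gene values was not tested.

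**Figure D4:**
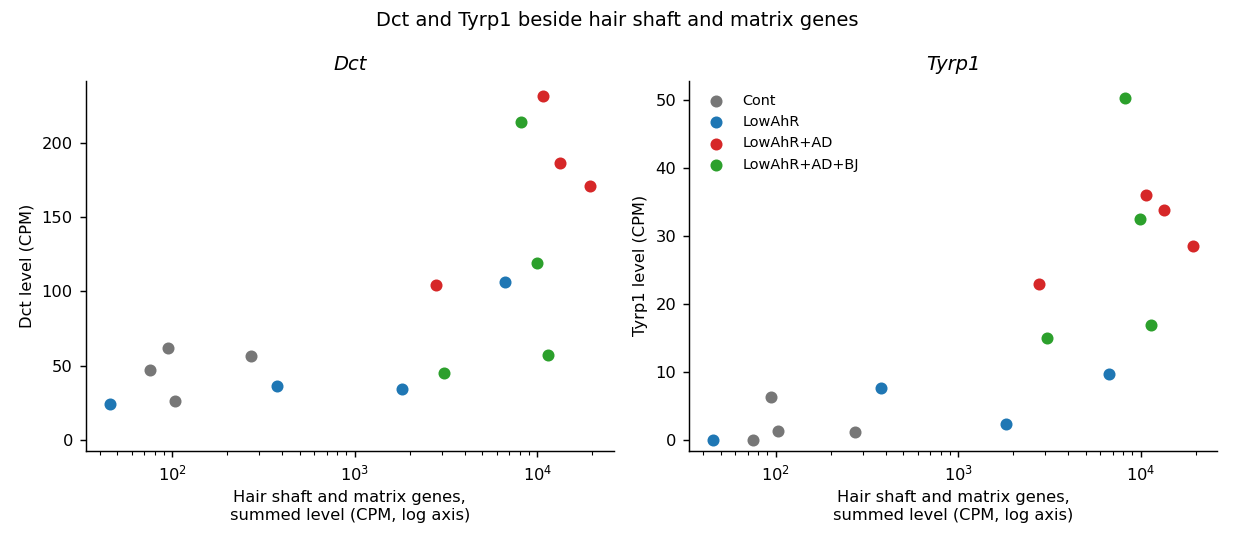
Dct (left) and Tyrp1 (right) in CPM against the summed level of 17 hair shaft and matrix genes in CPM on a log axis, with 1 point per library coloured by group. The 4 Cont libraries lie at sums up to 271 CPM with Dct up to 61.9 CPM, and LowAhR replicate 4, at a sum of 6693 CPM and 106 CPM of Dct, lies among the DNCB libraries on the horizontal axis.

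Among the signals and receptors that govern melanocytes, 13 of 14 listed names had a row and 11 were tested. In LowAhR+AD, 2 rose against LowAhR, Ednrb and Nrg1, and 3 against Cont, Nrg1, Ednrb and Hgf, with none lower, where 6.42% and 12.3% of all tested genes rose. The Nrg1 call against LowAhR was lost without LowAhR replicate 1, 3 or 4 or LowAhR+AD replicate 2 (adjusted p = 0.0629 to 0.0759 by edgeR). The Hgf call against Cont was lost with limma voom (adjusted p = 0.195), with the replicate number as a block (adjusted p = 0.141) and without any 1 library other than LowAhR+AD replicates 2 and 4 (adjusted p = 0.0576 to 0.107). Their median log2 difference was 0.69 against LowAhR, beside 0.04 over all tested genes. Ednrb, the endothelin receptor that melanocytes need to spread and divide, was at 25.1 ± 13 CPM in Cont (SD, n = 4), 21.2 ± 13.1 in LowAhR, 67.2 ± 11.7 in LowAhR+AD and 48.3 ± 12 in LowAhR+AD+BJ. All LowAhR+AD libraries, at 57.2 to 82.6 CPM, were above all Cont and LowAhR libraries, which reached 38.9 CPM. The rise was 1.66 on the log2 scale against LowAhR (SE 0.44, adjusted p = 0.0208 by edgeR) and 1.42 against Cont (SE 0.44, adjusted p = 0.0281). Against LowAhR it lost its call without LowAhR replicate 1, 2 or 3 (adjusted p = 0.0607, 0.0509 and 0.0507), and against Cont without Cont replicate 1, Cont replicate 4 or LowAhR+AD replicate 4 (adjusted p = 0.0653, 0.0642 and 0.0545). Kit, the receptor of melanocyte survival, had group means of 4.89, 3.01, 7.08 and 3.28 CPM, and its ligand Kitl 19.7, 20.7, 20.4 and 18.4 CPM, and neither was called in any comparison. Asip, the agouti signal that turns hair pigment from dark to yellow, had group means of 11.2, 13, 18.8 and 26.1 CPM and was not called either. The library that stood apart had no count of it.

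The list for building and moving melanosomes had 30 genes with a row and 27 tested. In LowAhR+AD, 2 rose against LowAhR, Atp7a and Slc7a11, and against Cont 5 rose and 2 fell, where 12.6% and 21.8% of all tested genes were called. The median log2 difference was 0.23 against LowAhR. Slc24a5, the melanosomal ion exchanger, rose by 2.88 on the log2 scale against Cont (SE 0.79, adjusted p = 0.0142 by edgeR), from a mean of 1.81 to 13.4 CPM. Limma voom did not call it (adjusted p = 0.0681). Slc7a11, the cystine carrier that feeds yellow pigment but serves many cells against oxidation, had no count in Cont and group means of 2.04 CPM in LowAhR, 18.6 CPM in LowAhR+AD and 20.8 CPM in LowAhR+AD+BJ. Its call against LowAhR was lost with limma voom (adjusted p = 0.222), and without LowAhR replicate 1, 2 or 3 or LowAhR+AD replicate 2 or 4 (adjusted p = 0.0725 to 0.0916 by edgeR). Atp7a, the copper pump that loads tyrosinase and is used by most cells, rose by 1.08 against LowAhR (SE 0.26, adjusted p = 0.0123). Gpnmb, a homologue of Pmel that macrophages also make, fell by 1.45 on the log2 scale against Cont (SE 0.33, adjusted p = 0.0048), from a mean of 1206 to 443 CPM. Its mean was already 490 CPM in LowAhR, from which LowAhR+AD differed by -0.15 (SE 0.32, adjusted p = 0.813).

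Of the 12 transcription factors of the melanocyte lineage and of the Mitf family, 3 rose in LowAhR+AD against LowAhR, Snai2, Sox9 and Tfap2a, and against Cont 4 rose and 1, Zeb2, fell, where 12.6% and 21.8% of all tested genes were called. Their median log2 difference against LowAhR was 0.66. Snai2, a regulator of neural crest cells, rose by 1.73 (SE 0.27, adjusted p = 0.000844), Sox9 by 2.64 (SE 0.52, adjusted p = 0.00391) and Tfap2a by 1.42 (SE 0.29, adjusted p = 0.0044). Without LowAhR+AD replicate 1, the rises of Sox9 and Tfap2a against Cont were not called (adjusted p = 0.103 and 0.053 by edgeR), nor was that of Sox9 without Cont replicate 4 (adjusted p = 0.0576). All 3 are also known in keratinocytes or hair follicle cells. Pax3, the lineage gene above Mitf, had group means of 0.485, 2.22, 0.476 and 1.38 CPM and was not called.

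To see which genes had the pattern most like the pigment genes, each of 14184 genes with a mean of at least 1 CPM was correlated with the mean of the 9 tested pigment genes, each scaled to the same mean and SD in log2 CPM. The correlations are over 16 libraries that share groups and a depth that differs by group, and are given as a description. The closest were Krtap5-3, a keratin-associated protein gene, at r = 0.94, Spink6, a protease inhibitor gene of the epidermis, and Cdsn, the corneodesmosin gene, at 0.90 each, followed by Myl10, Tgm3 and Barx2 at 0.89, Gm10272 at 0.88 and Ppp2r1b, Dnlz and Serbp1 at 0.87. Krtap5-3, Spink6, Myl10 and Gm10272 were themselves low, with means of 2.02, 4.07, 1.73 and 2.03 CPM. The others of these had means of 43.3 CPM or more. With each library taken against its group mean, Myl10, Krtap5-3, Barx2, Cdsn and Dnlz were again among the closest 10. The ranking depended on the measure and on 1 library. Without LowAhR+AD replicate 1, Lbh and Chtop came first at 0.95 and 0.94, from 0.68 and 0.63 with it, and of the genes above only Krtap5-3, Tgm3 and Cdsn were among the closest 10. By rank correlation only Serbp1 of them was. Of the pigment genes themselves, Slc45a2 lay closest to their mean at 0.91 and Dct at 0.88, while Pmel was at 0.09 and Sox10 at -0.14. Each of them is part of that mean, which raises its own correlation, so these values cannot be set beside those of other genes. Between single genes, Dct and Slc45a2 correlated at 0.83 and Dct and Tyrp1 at 0.77, whereas Pmel and Mlana went apart at -0.62.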

How the data were processed

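RNA from the skin of 16 mice, 4 per group, was made into 1 QuantSeq library per mouse by the authors, who deposited raw counts per gene symbol. The submitters' processing notes name Bowtie2, bedtools and mm10. The annotation, the strand setting and the treatment of reads with several matches are not given in the sources used here. Each library had 23282 rows with 23238 symbols and 7080508 to 13467477 counts, and replicates differed by more than sampling noise (chi-square per degree of freedom 16.4 to 285). Groups and replicate numbers came from the labels.

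Counts were fitted in R 4.3.3 with edgeR 4.0.16. Rows were kept by filterByExpr (minimum count 10, minimum total 15), which left 14854, and TMM factors were 0.892 to 1.16. All 16 libraries entered 1 quasi-likelihood model without covariates, with 5 comparisons and Benjamini-Hochberg adjustment over all rows. A row was called at an adjusted p under 0.05. Log2 CPM used a prior count of 2. The fit was first tested on simulated data. The pigment genes and gene lists were chosen with earlier results of these data known. All 10 pigment genes were named, and from each other list the 3 with the lowest adjusted p, with Kit, Ednrb, Kitl, Asip and Pax3. Asip is listed under its older symbol. One listed name, Attrn, is a misspelling of Atrn, so that Atrn was not analysed here. Hgf, Nrg1, Slc7a11 and rare pigment genes get no fitted fold change, since it depends on the prior count, but they enter the medians.

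Alternatives were RLE and upper-quartile factors, library sizes without hair, muscle and fat genes, a minimum change of 2-fold, DESeq2 1.42.0, limma voom 3.58.1, no filter, at least 10 counts in every library, a block for the replicate number, a model of just the 8 libraries of a comparison, and each library left out. Same-numbered libraries did not deviate together: of 20 pairs of groups and numbers, 3 had a correlation over 0.1 (range -0.05 to 0.17), so the numbers were not read as pairs. Coordinates are from GENCODE M21 on mm10, and start windows from RefSeq on GRCm38.p6. Some results for genes of the Schwann cell list are not reported here.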

Additional observations from a re-analysis of the deposited data

Results flagged for a closer look

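In 7 of the 39 sets of 4 libraries with unequal values, 1 library lay far from its 3 fellows by Dixon's test, which marks about 1 in 20 by chance. In 4 of the 7 the 3 fellows had no count, so that any count marks the library by construction, and no excess over chance can be read from the number. For Dct it was LowAhR replicate 4, at 106 CPM against 24.4 to 36.8 CPM in the other LowAhR libraries. The same library had 1.43 CPM of Tyr and 1.43 CPM of Slc45a2, with no count of either gene in its 3 fellows. For Tyr, Cont replicate 4 had 1.92 CPM against at most 0.129 CPM, and LowAhR+AD+BJ replicate 1 had 1.37 CPM against 0.101 to 0.311 CPM. Oca2 was at 1.16 CPM in Cont replicate 2 and at 0 in the other Cont libraries. Mc1r was at 0.128 CPM, which is 1 count, in Cont replicate 1 and at 0 in the other Cont libraries.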

How the results depend on the processing

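The rises of Dct and Tyrp1 in LowAhR+AD against Cont were called in every fit in which the gene was tested, and that of Dct against LowAhR in every fit that kept all libraries. Low counts limit what can be said of Tyr, Oca2, Mc1r and Slc45a2, which had no count in 2 or more Cont libraries. The number of pigment genes called in LowAhR+AD against LowAhR was 1, with limma voom 2 and with 1 library left out 0 to 2. Against Cont it was 3, with DESeq2 4 (Mc1r added), with limma voom 2, with only the 8 libraries 2 of the 6 genes then tested, with at least 10 counts in every library 1 of the 4 then tested, and 2 to 3 with 1 library left out. In LowAhR+AD+BJ against LowAhR it was 0, and 0 to 1 with 1 library left out. The cause was not tested.

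Among the pigment genes, values that changed sign belonged to differences that were not called. With limma voom these were Dct in LowAhR against Cont at -0.082, Pmel and Mlana in LowAhR+AD+BJ against LowAhR+AD at -0.0087 and 1.68, and Mlana in LowAhR+AD against Cont at -1.08, on the log2 scale. Asip, no pigment gene of the 10, also changed sign with limma voom, to -1.55 against LowAhR and -1.31 against Cont in LowAhR+AD. With upper-quartile factors it was Sox10 in LowAhR+AD against Cont at -0.0054. With the replicate number as a block, Dct in LowAhR against Cont became -0.10 and Mlana in LowAhR+AD+BJ against LowAhR+AD 0.38. This block left the counts of pigment genes called at 1 in LowAhR+AD against LowAhR, 3 in LowAhR+AD against Cont and 0 in the other comparisons. Over the 5 comparisons, the library of the first group correlated best with its own number in 5 of 20 cases. Among other named genes it ended the calls of Slc24a5 and Hgf in LowAhR+AD against Cont (adjusted p = 0.0516 and 0.141 by edgeR). With only the 8 libraries compared, Ednrb, Atp7a and Slc7a11 in LowAhR+AD against LowAhR lost their calls (adjusted p = 0.0524, 0.0691 and 0.0959 by edgeR).

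With 1 library left out, log2 differences ranged as follows where the sign changed. In LowAhR against Cont, Dct ranged from -0.59 to 0.30 and Sox10 from -0.72 to 0.18. In LowAhR+AD against LowAhR, Mitf ranged from -0.0023 to 0.36 and Sox10 from -0.13 to 0.77. In LowAhR+AD+BJ against LowAhR+AD, Tyrp1 ranged from -0.50 to 0.13, Pmel from -0.16 to 0.17 and Mlana from -0.44 to 0.71. In LowAhR+AD against Cont, Mlana ranged from -0.055 to 1.07, Mitf from -0.16 to 0.20 and Sox10 from -0.12 to 0.18.

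Over all genes, LowAhR against Cont gave 0 calls, but 493 with DESeq2, 250 with only its 8 libraries, 45 with at least 10 counts in every library and up to 159 with a library left out. LowAhR+AD against LowAhR gave 1876, and 765 with only its 8 libraries or 1128 without LowAhR replicate 2. LowAhR+AD+BJ against LowAhR gave 1005, with 1666 by DESeq2 and 414 to 1469 with a library left out. LowAhR+AD+BJ against LowAhR+AD gave 0, with 17 by DESeq2 and 1405 genes at an unadjusted p under 0.05. LowAhR against Cont had 2031 such genes.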
